A study of Mus musculus with 7 samples.

Results

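Cell cycle and proliferation genes are described here in the livers of 7 C57BL/6 mice aged 36 weeks. The group was chosen by name as 41 gene symbols, of 24421 in the count table, and all 41 were found. It holds 16 genes of the replication phase, which license and copy DNA or drive entry into that phase, and 25 mitotic genes, which act from the end of replication to the separation of the daughter cells. The 3 controls carried floxed Prkci alleles without Cre (Prkciflox/flox), and the 4 libraries labelled knockout came from mice that also carried AlbCre (Prkciflox/floxAlbCre), a Cre driven by the albumin promoter and so active mainly in hepatocytes. Prkci encodes an atypical protein kinase C of the cell polarity complex. Both groups were treated alike: at 2 weeks of age the mice received the liver carcinogen diethylnitrosamine (DEN), 25 mg/kg intraperitoneally, and a 60% fat diet was fed from week 4 on, for 32 weeks. The labels do not say whether tumour or non-tumour tissue was taken.

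A cell that divides first commits to the cycle through cyclin D and cyclin E kinases, which free E2F transcription factors from the retinoblastoma proteins. E2F then switches on the genes that load the replicative helicase and make DNA precursors. A later wave, switched on by the MuvB complex with B-MYB and FOXM1, supplies cyclin B, the kinases of mitosis, the spindle and the kinetochore. Adult hepatocytes rarely divide, and many of them are polyploid, having replicated their DNA without completing division. Both waves return during regeneration and in liver tumours.

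Windows of 300 bases around annotated start sites, 250 bases before to 50 after, were taken from RefSeq (GRCm38.p6, the assembly called mm10) for 33 of the 41 genes, 20 mitotic and 13 replication-phase, where Prc1 and Mcm7 have 2 windows each. Aurkb, Mcm4, Foxm1, Kif20a, Tpx2, Ccnd1, Ccna2 and Ccne2 had no window. Searched on both strands were the cell cycle homology region, or CHR, through which MuvB binds (TTTGAA or TTCGAA, the latter its own reverse complement), the CCAAT box bound by NF-Y (CCAAT), and the E2F element (TTTGGCGC, TTTCCCGC, TTTCGCGC or TTTGCCGC). A match describes letters and is not a shown binding site. A CHR word lay in 15 of 21 mitotic windows (71.4%), in 3 of 14 replication-phase windows (21.4%) and in 19.2% of the other 32816 windows. An E2F word lay in 1 mitotic window (4.76%), 6 replication-phase windows (42.9%) and 2.25% of the others. At least 1 CCAAT box lay in 18 mitotic windows (85.7%), 9 replication-phase windows (64.3%) and 37.4% of the others. The 2 Prc1 windows overlap over most of their length. Their CHR word and CCAAT box are the same sites, counted in each window.

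**Figure D1:**
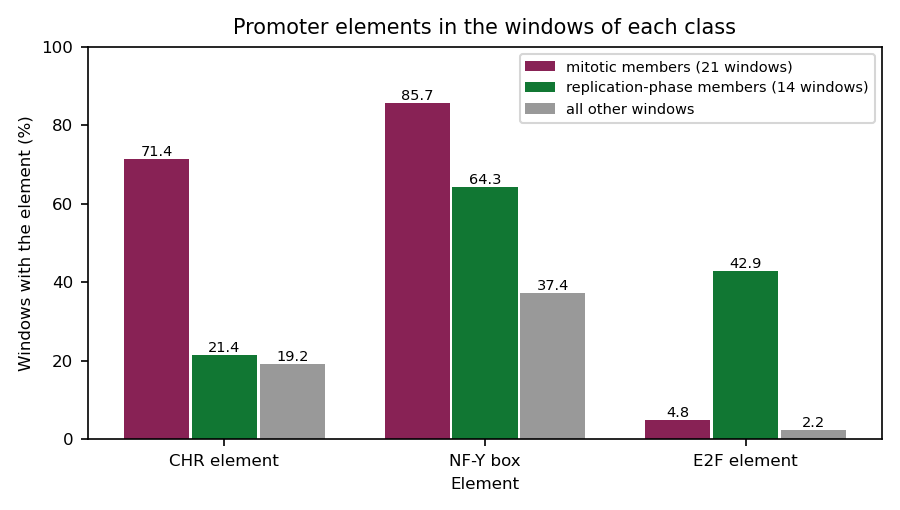
Share of promoter windows (y axis, percent) that hold at least 1 CHR word, NF-Y box or E2F word (x axis), for 21 windows of mitotic genes, 14 windows of replication-phase genes and the other 32816 windows. CHR words stood in 71.4% of the mitotic windows and E2F words in 42.9% of the replication-phase windows.

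The promoters below are those of the 2 genes with the smallest unadjusted p in each class that have a window, and of 1 gene of each class whose words are least like its class. They run 5′ to 3′ on the gene's strand up to the start site, without any base that GENCODE M21 places in an exon, and capitals mark every CHR, CCAAT and E2F word on either strand (a CCAAT box on the opposite strand reads ATTGG, and a CHR TTCAAA). All 6 genes lie on the minus strand. Cdc20 (chr4:118437353-118437593) holds a CHR whose leftmost base is at -18 relative to the start, and Hmmr (chr11:40733438-40733666) holds 5 CCAAT boxes before the start, while its CHR lies at base 9 after it and is not shown. Mcm7 (chr5:138171267-138171516) and E2f8 (chr7:48881597-48881846) are the replication-phase genes with the smallest p. Neither shows the E2F word that 6 windows of their class hold, though the other Mcm7 window, not printed, has 2 E2F words, and E2f8 holds a CHR at -20, close to where Cdc20 has its own. Cdk1 (chr10:69352939-69353162) is the single mitotic gene with an E2F word, and Mcm2 (chr6:88898781-88899030) is a replication-phase gene with a CHR and no E2F word.
Cdc20: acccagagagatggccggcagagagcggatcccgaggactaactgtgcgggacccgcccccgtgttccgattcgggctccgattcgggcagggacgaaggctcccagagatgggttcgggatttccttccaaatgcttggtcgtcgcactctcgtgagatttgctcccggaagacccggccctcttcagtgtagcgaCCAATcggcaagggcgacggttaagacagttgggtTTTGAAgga
Hmmr: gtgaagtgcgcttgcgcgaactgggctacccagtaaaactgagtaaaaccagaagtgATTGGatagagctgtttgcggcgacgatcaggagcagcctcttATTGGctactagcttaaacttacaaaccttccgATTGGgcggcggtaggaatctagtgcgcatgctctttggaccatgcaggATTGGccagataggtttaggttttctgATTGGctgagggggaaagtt
Cdk1: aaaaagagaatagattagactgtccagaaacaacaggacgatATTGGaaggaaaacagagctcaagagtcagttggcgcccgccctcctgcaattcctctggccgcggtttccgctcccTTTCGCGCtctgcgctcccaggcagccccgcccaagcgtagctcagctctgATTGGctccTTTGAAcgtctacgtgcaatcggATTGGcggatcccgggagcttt
E2f8: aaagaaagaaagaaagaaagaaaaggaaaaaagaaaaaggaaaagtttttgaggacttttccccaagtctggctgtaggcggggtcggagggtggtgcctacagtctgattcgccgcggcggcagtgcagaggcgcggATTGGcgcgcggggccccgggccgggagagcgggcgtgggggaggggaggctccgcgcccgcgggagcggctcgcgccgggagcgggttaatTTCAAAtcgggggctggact
Mcm7: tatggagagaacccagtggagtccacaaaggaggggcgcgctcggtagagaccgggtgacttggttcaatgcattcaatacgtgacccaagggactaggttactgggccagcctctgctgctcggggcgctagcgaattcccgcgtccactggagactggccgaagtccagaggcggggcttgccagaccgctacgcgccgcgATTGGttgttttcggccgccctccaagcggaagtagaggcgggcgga
Mcm2: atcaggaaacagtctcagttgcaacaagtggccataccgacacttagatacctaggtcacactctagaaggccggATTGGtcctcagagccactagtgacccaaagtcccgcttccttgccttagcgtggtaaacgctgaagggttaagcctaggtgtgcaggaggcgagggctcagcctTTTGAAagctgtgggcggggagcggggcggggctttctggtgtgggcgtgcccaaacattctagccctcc

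The libraries held 23807580 to 49203615 reads assigned to genes. The libraries labelled knockout were the deeper ones, with 28695455 or more, against 26556486 or fewer in the controls. Prkci itself (chromosome 3, 30995747 to 31052959, plus strand of mm10) was at 23.3, 20.4 and 27.7 CPM in controls 1 to 3 and 30.0, 30.7, 28.2 and 28.7 CPM in the libraries labelled knockout 1 to 4, where CPM, counts per 1e+06 reads, is scaled by TMM factors. The edgeR log2 fold change was 0.30 (SE 0.12) with an adjusted p of 0.214, which ran from 0.0468 (without control 3) to 0.864 over the alternatives. Since reads from exons that Cre leaves in place are counted too, this level checks no genotype label. None of the 19 hepatocyte markers in the table was at 0, and together they took 110098 to 210201 CPM. Controls 1 and 2 stood apart from the other libraries in acute phase genes. Saa1, a gene picked for its values, was at 15126, 16392 and 474 CPM in the controls and at 494, 568, 1097 and 438 CPM in the libraries labelled knockout.

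None of the 41 cell cycle genes passed the test between genotypes, and the 2 classes leaned in opposite directions. With edgeR's quasi-likelihood fit and Benjamini-Hochberg adjustment, 0 of the 41 genes were higher and 0 lower at an adjusted p under 0.05, where 1.26% of all 13638 tested genes were higher and 0.953% lower. The lowest adjusted p was 0.115. At an unadjusted p under 0.05 there were 5 higher genes (12.2% of the 41, against 9.34% of all genes) and 2 lower ones (4.88%, against 8.67%), shares near the background. DESeq2 called 2 higher (Kif20a and Hmmr) and 1 lower (E2f8), against 4.18% and 3.45% of all genes, and limma-voom called 0, against 0.513% higher and 0.491% lower of all genes. Groups did not overlap for 3 genes that were higher in the libraries labelled knockout (E2f1, Ccnb1 and Hmmr) and 2 that were lower (E2f8 and Mcm7), against 8.63% and 7.63% of all genes.

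Mitotic genes lay mostly above 0 and replication-phase genes mostly below. Of the 25 mitotic genes, 23 had a log2 fold change above 0, with a median of 0.68, whereas 5 of 16 replication-phase genes did, with a median of -0.20. For all genes tested 48.9% lay above 0 and the median was -0.01. Genes of a class come from the same 7 libraries and are not independent observations, so these counts carry no test. Without control 1 the mitotic median was 1.17, and without control 3 it was 0.39. Leaving out 1 library moved the log2 fold change by over 1.5 times or turned its sign in 21 of 25 mitotic and 12 of 16 replication-phase genes. For 21 mitotic genes the highest value came without control 1, and for 10 each the lowest came without control 3 or without knockout 1.

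**Figure D2:**
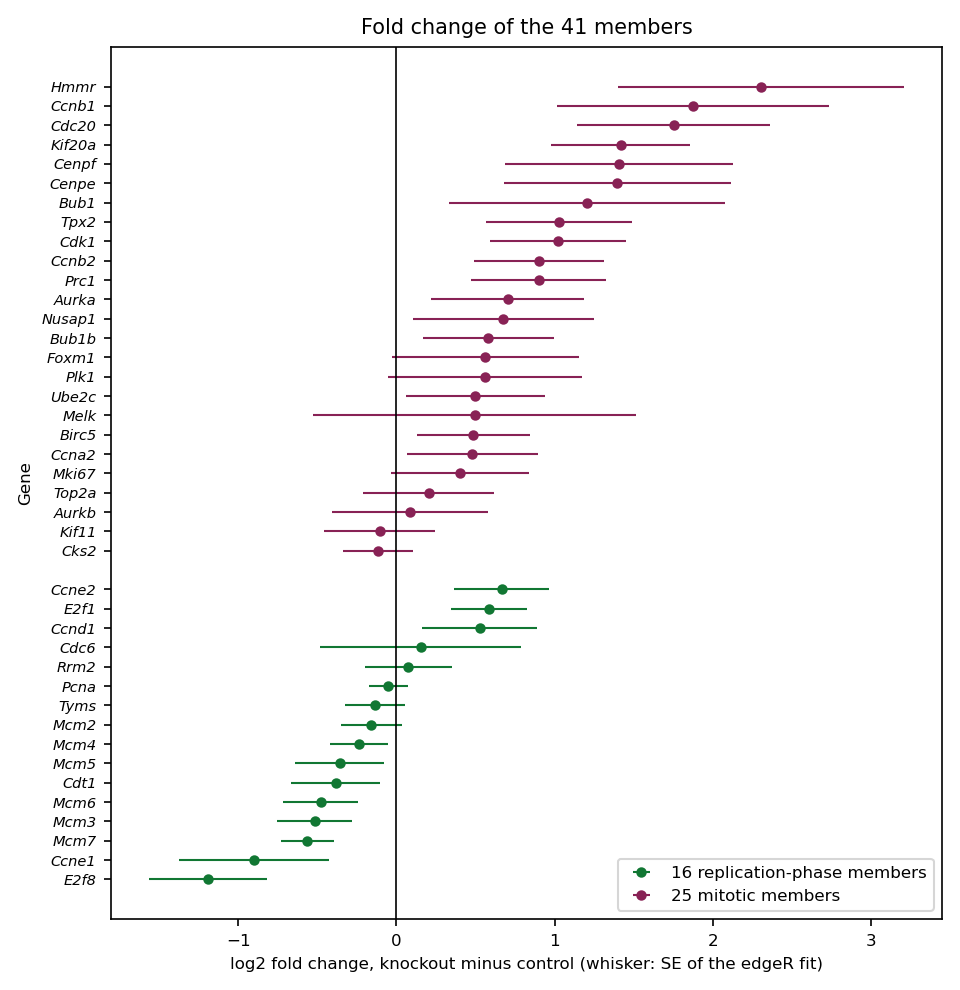
log2 fold change (x axis, knockout minus control, whiskers are the SE of the edgeR fit) of the 16 replication-phase and 25 mitotic genes, ordered within each class. In the mitotic class 23 of 25 points lie above 0, from -0.12 to 2.31, while 11 of 16 replication-phase points lie below 0, from -1.19 to 0.66.

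The level of each class was taken per library as the mean of log2(CPM + 0.5) over its genes. For the mitotic class it was 1.22, 0.52 and 0.32 in controls 1 to 3 and 1.78, 1.03, 0.86 and 1.35 in the libraries labelled knockout 1 to 4. Control 1 thus lay above knockouts 2 and 3, and the groups overlapped. The group means were 0.69 ± 0.47 (SD, n = 3) and 1.25 ± 0.40 (SD, n = 4), a difference of 0.57. For the replication-phase class the level was 2.45, 2.56 and 2.39 in the controls and 2.39, 2.28, 2.28 and 2.25 in the libraries labelled knockout, so that the highest of these, knockout 1 at 2.385, lay just under control 3 at 2.391. The means were 2.47 ± 0.09 and 2.30 ± 0.06 (SD). Mitotic minus replication-phase level was -1.23, -2.05 and -2.07 in the controls and -0.60, -1.24, -1.42 and -0.90 in the libraries labelled knockout. By this difference knockouts 1 and 4 stood above every control, and knockouts 2 and 3 lay between control 1 and the other controls.

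**Figure D3:**
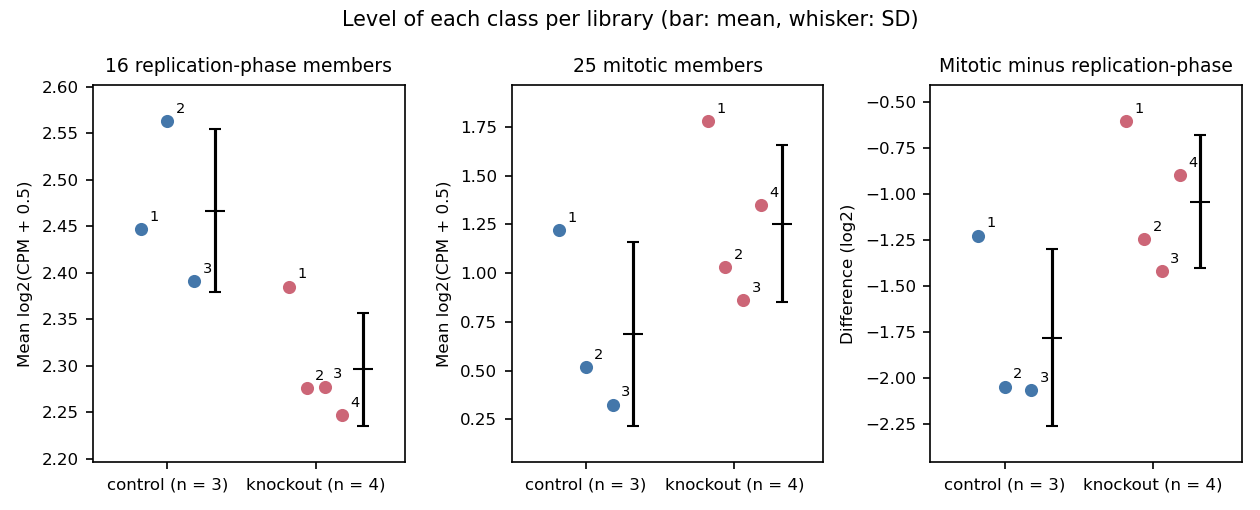
Mean log2(CPM + 0.5) of the replication-phase class (left) and the mitotic class (middle) and their difference (right) in each library, with replicate numbers beside the points and the group mean ± SD at their right. The y axes differ in range and do not start at 0. Control 1, at a mitotic level of 1.22, sits among the libraries labelled knockout, which run from 0.86 to 1.78.

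The mitotic genes were high in the same mice. Control 1 was the highest control for 23 of the 25, and control 2 for the other 2. Knockout 1 was the highest of its group for 19 and knockout 4 for 6, while knockouts 2 and 3 were the highest for 0. Over all 7 libraries the highest value was in knockout 1 for 16 genes, in control 1 for 5 and in knockout 4 for 4. The replication-phase genes had no such order, with the highest control split 5, 6 and 5 and the highest library labelled knockout split 5, 4, 2 and 5.

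**Figure D4:**
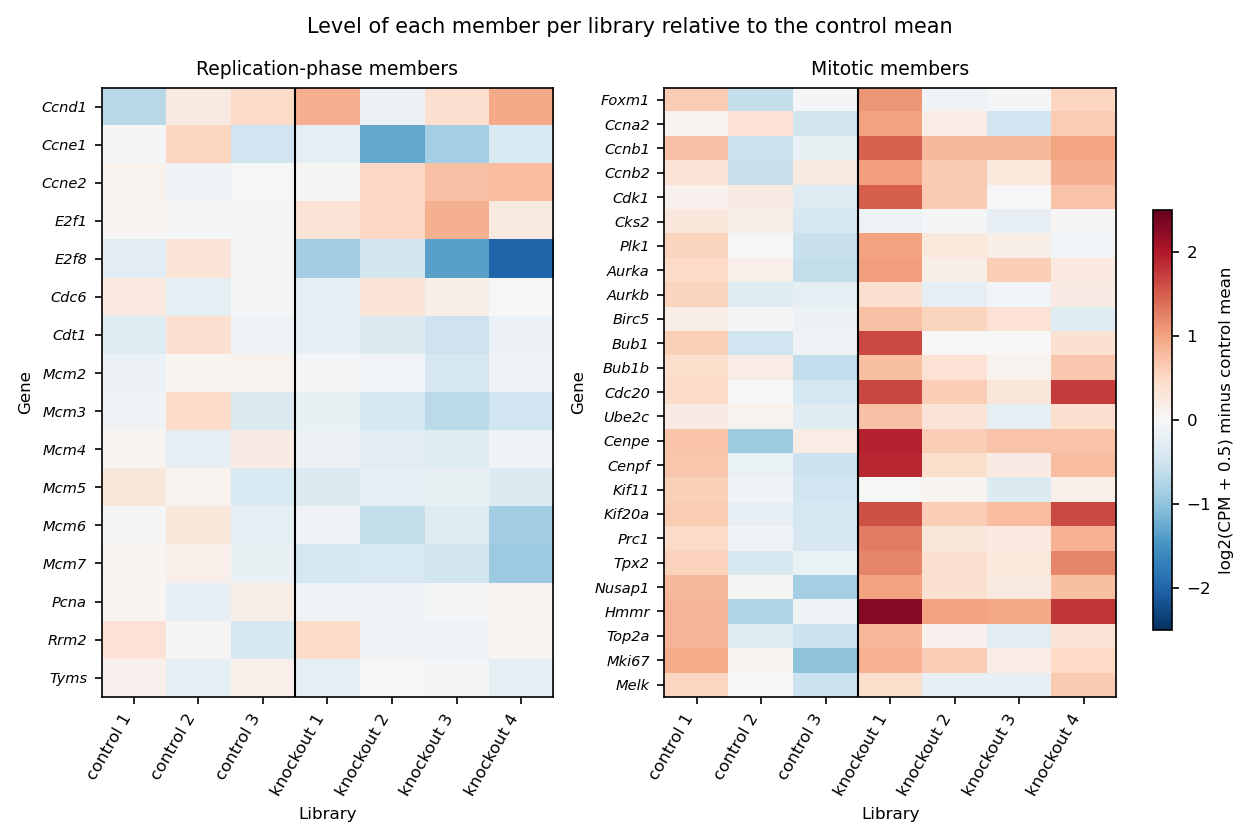
Level of each gene (rows) in each library (columns) as log2(CPM + 0.5) minus the control mean, with replication-phase genes at the left and mitotic genes at the right. Control 1, knockout 1 and knockout 4 are the columns where most mitotic genes are high, and E2f8 has its lowest values in the libraries labelled knockout, from 1.57 to 5.51 CPM.

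Markers of other cells and of tumours were read in the same libraries. Of 12 liver tumour markers tested, edgeR called 1 higher and 0 lower, against 1.26% and 0.953% of all genes. Their median log2 fold change was 0.46. At an unadjusted p under 0.05 in edgeR, 3 were higher (25%, against 9.34% of all genes) and 1 lower (8.33%, against 8.67%). The marker that edgeR called was Ly6d, a surface protein (edgeR adjusted p = 0.0197). It was at 12.4 ± 4.15 CPM (SD, n = 3) in the controls and 122 ± 45.2 CPM (SD, n = 4) in the libraries labelled knockout. The 12 stellate markers had a median log2 fold change of 0.32. At an unadjusted p under 0.05 in edgeR, 4 were higher (33.3%, against 9.34% of all genes) and 2 lower (16.7%, against 8.67%). DESeq2 called 3 higher and 2 lower, against 4.18% and 3.45% of all genes. With limma-voom 1 was called higher, against 0.513%. Among the stellate markers edgeR called 0 higher and 1 lower, against 1.26% and 0.953% of all genes. The lower one was the matrix protein gene Ecm1 (edgeR adjusted p = 0.0356). It was at 75.2 ± 16.02 CPM (SD, n = 3) in the controls and 40.2 ± 7.56 CPM (SD, n = 4) in the libraries labelled knockout. Of 27 acute phase genes edgeR called 0 higher and 3 lower, against 1.26% and 0.953% of all genes. These 3 were led by Serpina3k (log2 fold change -1.48, SE 0.29, edgeR adjusted p = 0.0334) and Itih4 (-1.73, SE 0.36, edgeR adjusted p = 0.0436). At an unadjusted p under 0.05 in edgeR, 20 were lower (74.1%, against 8.67% of all genes) and 0 higher. DESeq2 called 17 lower and limma-voom 1, against 3.45% and 0.491% of all genes. The 27 genes summed to 211481, 208233 and 54502.5 CPM in controls 1 to 3. The libraries labelled knockout had 48063 to 58174 CPM, a range that holds control 3. Serpina3k, however, was at 9290, 9505 and 8481 CPM in controls 1 to 3 and at 2527 to 5274 CPM in the libraries labelled knockout. Itih4 was at 11550, 11726 and 3590 CPM in controls 1 to 3 and at 2331 to 2999 CPM in the libraries labelled knockout. Leaving out 1 library ended the Ly6d call for control 1 (adjusted p = 0.0879), the Ecm1 call for controls 1 and 2 and knockouts 1, 3 and 4 (0.0647 to 0.115), the Serpina3k call for the same 5 libraries (0.100 to 0.122) and the Itih4 call for every library but control 3 (0.0633 to 0.178). The Itih4 log2 fold change was -0.41 against control 3 alone and -0.62 with the acute phase covariate (edgeR adjusted p = 0.0741). That covariate is the mean level of the 27 acute phase genes, Itih4 among them. The fit therefore takes up part of the gene's own change and is no separate check on Itih4. In limma-voom Itih4 was not called (adjusted p = 0.0867). No marker of the other cell types passed the edgeR test. The markers tested were 19 hepatocyte, 16 macrophage, 8 neutrophil, 17 lymphocyte, 12 endothelial, 9 cholangiocyte and 5 erythroid ones. At an unadjusted p under 0.05 in edgeR, 7 neutrophil markers were lower (87.5%, against 8.67% of all genes) and 0 higher. Endothelial markers had 4 lower (33.3%) and 0 higher, and hepatocyte markers 4 lower (21.1%) and 1 higher (5.26%, against 9.34% of all genes). Macrophage markers had 3 in each direction (18.75%), lymphocyte markers 2 in each (11.8%), cholangiocyte markers 1 lower and erythroid markers 1 higher. DESeq2 called 6 neutrophil, 3 hepatocyte, 1 macrophage, 1 lymphocyte and 1 endothelial marker lower, and 1 hepatocyte and 1 macrophage marker higher. Control 1 also had the highest summed level of 9 neutrophil markers, at 362 CPM, against 87.1 and 17.6 CPM in controls 2 and 3 and 13.7 to 17.8 CPM in the libraries labelled knockout. Ngp, a granule protein of neutrophil precursors, also picked for its values, was at 61.6, 14.6 and 0 CPM in the controls and listed at 0 in 3 of the 4 libraries labelled knockout. Summed levels of 16 macrophage markers ran from 842 to 1497 CPM and from 661 to 1353 CPM in the respective groups, of 19 lymphocyte markers from 20.03 to 31.1 CPM and from 23.2 to 27.6 CPM, and of 12 endothelial markers from 614 to 700.2 CPM and from 457 to 601 CPM. The 9 erythroid markers summed to 83.4 to 148 CPM and 98.9 to 133 CPM, with the globins Hba-a1, Hba-a2, Hbb-bs and Hbb-bt listed at 0 in every library. For 10 cholangiocyte markers the sums were 88.6 to 250.1 CPM and 170 to 419 CPM, with the highest in knockout 1. Stellate markers, 12 in number, summed to 321 to 509 CPM and 373 to 557 CPM, and 13 liver tumour markers to 1409 to 1675 CPM and 1233 to 2116 CPM.

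Afp, the fetal albumin relative that liver tumours express, and the fetal growth factor Igf2 were likewise picked for their values. Afp was at 1.06, 1.88 and 1.71 CPM in the controls and 16.1, 2.501, 2.32 and 9.17 CPM in the libraries labelled knockout, and Igf2 at 0.304, 0.141 and 0.534 CPM and 3.91, 0.585, 0.622 and 1.09 CPM. Both were highest in knockout 1 and next in knockout 4, the libraries with the highest mitotic level. The 13 liver tumour markers together did not follow this order. Their sums were 1904, 2116, 1468 and 1233 CPM in the libraries labelled knockout 1 to 4, with knockout 4 the lowest of all 7 libraries. Afp did not pass the edgeR test (log2 fold change 2.28, SE 0.80, adjusted p = 0.202), nor did Igf2 (adjusted p = 0.194). With counts thinned to equal depth the mitotic median was 0.69, and the replication-phase median -0.32, without Cdc6, which was not tested there. The part of these cells in the mitotic values was not tested, and in whole liver more dividing cells and more RNA per dividing cell cannot be told apart.

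Levels set the frame for what could be seen. Divided by the length of the longest coding transcript, Ccnd1 had the highest mean level over the 7 libraries, at 14.6 CPM per kb, followed by Pcna at 11.6, Cks2 at 7.84 and Mcm7 at 3.70 CPM per kb. The median was 1.48 CPM per kb for the replication-phase genes and 0.464 CPM per kb for the mitotic genes, with Cdc6 lowest of all at 0.0716 CPM per kb. All 25 mitotic genes together had 661 to 1139 reads per control and 1203 to 4451 reads per library labelled knockout. A count of 0 allows up to 3 reads, or 0.12 CPM in control 2 before TMM scaling, and such limits cover counting error only.

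Cyclins and transcription factors that open the cycle had fold changes on both sides of 0, and none passed the test. Ccnd1, cyclin D1, partner of the kinases that first act on the retinoblastoma protein, was at 25.5, 48.0 and 57.4 CPM in controls 1 to 3 and 78.3, 37.4, 55.5 and 80.1 CPM in the libraries labelled knockout 1 to 4. The groups overlapped (log2 fold change 0.53, SE 0.36). The cyclins E, which activate CDK2 at the start of replication, had fold changes of opposite sign. Ccne1 was at 1.87, 3.05 and 1.25 CPM in the controls and 1.61, 0.506, 0.851 and 1.39 CPM in the libraries labelled knockout (log2 fold change -0.90, SE 0.47). Ccne2 was at 1.82, 1.55 and 1.71 CPM and 1.74, 2.63, 3.14 and 3.26 CPM in the same order (log2 fold change 0.66, SE 0.30), with knockout 1 among the controls and the other 3 above them. The edgeR adjusted p was 0.358 and 0.284.

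E2f1, an activating member of its family (chromosome 2, 154559407 to 154569892, minus strand), was at 3.04, 2.86 and 2.85 CPM in the controls and 3.83, 4.39, 5.86 and 3.48 CPM in the libraries labelled knockout. Every library labelled knockout lay above every control, with 0.59 (SE 0.24) as log2 fold change and an edgeR adjusted p of 0.236. E2f8 (chromosome 7, 48866429 to 48881596, minus strand) encodes an atypical E2F that represses targets of E2F1, and in mouse liver it is needed with E2F7 for hepatocytes to become polyploid. It was at 6.33, 9.90 and 7.51 CPM in the controls and 4.02, 5.51, 2.75 and 1.57 CPM in the libraries labelled knockout, where each value lay below every control. Its log2 fold change of -1.19 (SE 0.38) was the lowest of the 41 (edgeR adjusted p = 0.139, DESeq2 adjusted p = 0.0285). Across the alternatives run, the adjusted p for E2f8 went from 0.0285 to 0.519.

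The 6 subunits of the MCM2 to MCM7 helicase, which unwinds DNA at the fork, all had fold changes below 0, from -0.56 to -0.16 with a median of -0.42. In the Mcm7 gene (chromosome 5, 138164583 to 138172422, minus strand) levels were 13.97, 14.6 and 11.8 CPM in the controls and 9.69, 10.1, 9.65 and 6.89 CPM in the libraries labelled knockout, which did not overlap. Its log2 fold change was -0.56 (SE 0.17) and it had the lowest adjusted p of all 41 genes (edgeR, 0.115). Mcm3 was at 6.73, 10.1 and 5.48 CPM in the controls and 6.32, 5.16, 4.32 and 4.92 CPM in the libraries labelled knockout, and Mcm6 at 7.19, 9.15 and 6.20 CPM and 6.96, 4.74, 5.95 and 3.85 CPM. In both genes knockout 1 lay above control 3, so the groups overlapped. Mcm4 was at 6.68, 5.35 and 7.44 CPM and 5.76, 5.27, 5.10 and 5.92 CPM in the same order, with control 2 among the libraries labelled knockout. The log2 fold changes of Mcm2, Mcm4 and Mcm5 were -0.16 (SE 0.19), -0.24 (SE 0.18) and -0.36 (SE 0.28). None of the 6 passed the test. The Mcm5 value turned to 0.14 against control 3 alone and to 0.057 when acute phase level was a covariate.

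Cdt1 and Cdc6, which load the helicase, were at low levels. Cdt1 had a mean of 3.14 ± 1.01 CPM (SD, n = 3) in the controls and 2.40 ± 0.333 CPM (SD, n = 4) in the libraries labelled knockout, and Cdc6 had 21 reads in all controls and 53 in all libraries labelled knockout. The sliding clamp Pcna varied little, at 18.4, 15.5 and 19.9 CPM in the controls and 16.6, 16.5, 17.6 and 18.7 CPM in the libraries labelled knockout. Its log2 fold change of -0.05 (SE 0.12) had the smallest SE of the 41 genes. Rrm2, the regulated subunit of ribonucleotide reductase, and Tyms, thymidylate synthase, make DNA precursors, and their log2 fold changes were 0.08 (SE 0.28) and -0.14 (SE 0.19). Pcna and Rrm2 changed sign without control 3 (0.027 and -0.13).

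**Figure D5:**
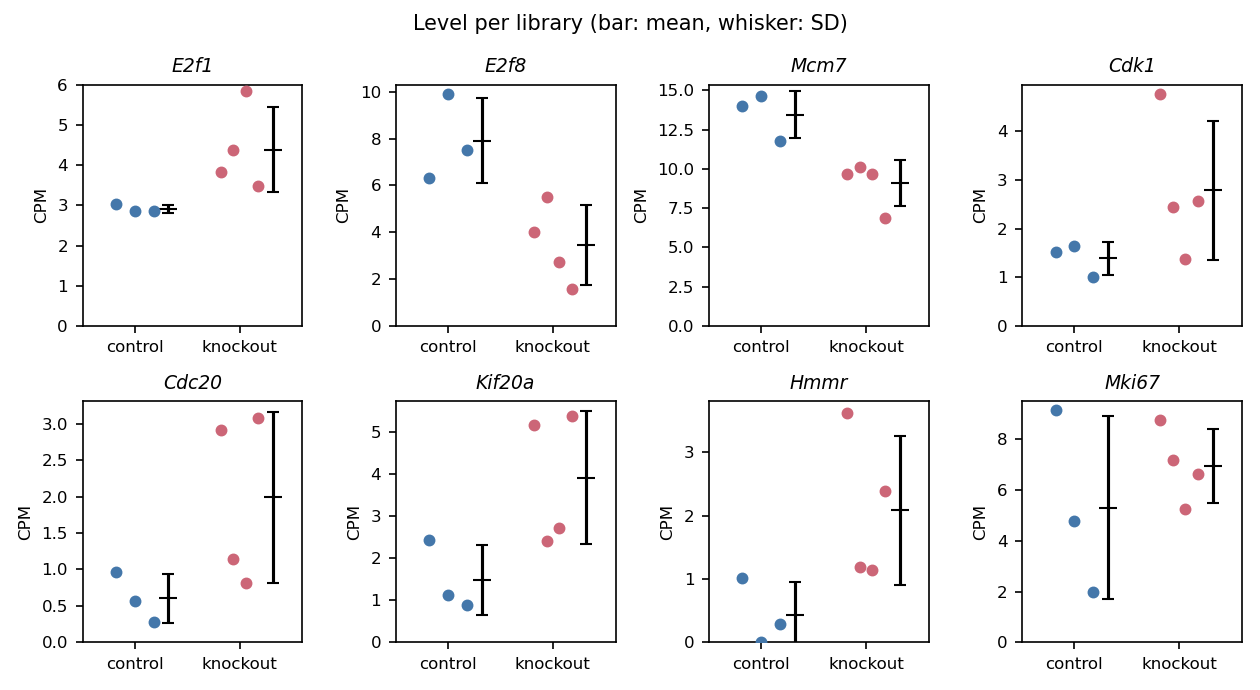
Level in CPM (y axis, from 0) of the 7 genes with an unadjusted p under 0.05 and of Mki67 in each control and each library labelled knockout, with the group mean ± SD at the right of the points. E2f1, E2f8, Mcm7 and Hmmr show groups that do not overlap, while Mki67 spans 1.99 to 9.11 CPM in the controls alone.

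Among regulators of mitotic entry, Foxm1, the transcription factor of the late wave, was at 1.57, 0.375 and 0.783 CPM in the controls and 2.36, 0.745, 0.785 and 1.42 CPM in the libraries labelled knockout, with control 1 above knockouts 2, 3 and 4 (log2 fold change 0.56, SE 0.59). Cdk1, the kinase that drives mitosis, was at 1.52, 1.64 and 0.997 CPM and 4.77, 2.45, 1.37 and 2.56 CPM in the same order. Knockout 3 lay among the controls and the other 3 lay above them (log2 fold change 1.02, SE 0.43, edgeR adjusted p = 0.246). Its cyclin partner Ccnb1 had 18 reads in all controls, 0 of them in control 2, against 173 in the libraries labelled knockout. In CPM it was at 0.709, 0 and 0.142 CPM in the controls and 1.53, 0.772, 0.785 and 0.945 CPM in the libraries labelled knockout, each of them above every control (log2 fold change 1.87, SE 0.86). The second cyclin B gene, Ccnb2, was at 1.52, 0.563 and 1.35 CPM and 2.73, 2.00, 1.41 and 2.44 CPM in the same order, with knockout 3 under control 1 (log2 fold change 0.90, SE 0.41). Ccna2, cyclin A2, which acts in replication and at mitotic entry, was at 2.53, 3.14 and 1.57 CPM and 5.20, 2.71, 1.54 and 3.88 CPM, with control 2 above knockouts 2 and 3. Its log2 fold change was 0.48 (SE 0.41), and that of the kinase subunit Cks2 was -0.12 (SE 0.22). Among mitotic kinases, the log2 fold changes of Plk1 and Aurkb were 0.56 (SE 0.61) and 0.09 (SE 0.49). Aurka, which matures the spindle poles, was at 1.52, 1.08 and 0.463 CPM in the controls and 2.49, 1.12, 1.73 and 1.22 CPM in the libraries labelled knockout (log2 fold change 0.70, SE 0.48), and control 1 lay above knockouts 2 and 4. Over the fits that each left out 1 library, the log2 fold changes ran from 0.13 to 1.18 for Foxm1, from 0.11 to 1.17 for Plk1 from 1.30 to 3.65 for Ccnb1 and from 1.73 to 3.74 for Hmmr. The highest came without control 1 in all 4, and the lowest without knockout 1 for Foxm1 and Plk1 and without control 2 for Ccnb1 and Hmmr. Melk, a kinase with few reads (16 and 61 in the respective groups), had a log2 change of 0.49 (SE 1.02).

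Genes of the spindle checkpoint and of mitotic exit included some of the larger fold changes. Cdc20 (chromosome 4, 118432901 to 118437352, minus strand), the activator of the ubiquitin ligase APC/C, was at 0.962, 0.563 and 0.285 CPM in the controls and 2.92, 1.14, 0.818 and 3.08 CPM in the libraries labelled knockout. Knockouts 1 and 4 were about alike and high, and knockout 3 lay below control 1. The log2 fold change was 1.75 (SE 0.61), with an edgeR adjusted p of 0.169. Ube2c, the ubiquitin-conjugating enzyme that works with APC/C, had a log2 change of 0.50 (SE 0.44). The log2 changes of the checkpoint genes Bub1 and Bub1b were 1.21 (SE 0.87) and 0.58 (SE 0.42), and in Bub1 knockout 1 alone stood out, at 2.13 CPM against 0.327 to 0.597 CPM in the others of its group. Without knockout 1 the Bub1 value was 0.19, and without control 1 it was 2.13. Birc5, survivin, a subunit of the Aurora B complex, had a log2 change of 0.49 (SE 0.36).

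Among motor and spindle genes, Kif20a (chromosome 18, 34624613 to 34633277, plus strand), a kinesin of cytokinesis, was at 2.43, 1.13 and 0.890 CPM in the controls and 5.16, 2.39, 2.72 and 5.37 CPM in the libraries labelled knockout. Knockouts 1 and 4 exceeded every control by more than 2 CPM, and knockout 2 lay just under control 1. The log2 fold change was 1.42 (SE 0.44), which passed DESeq2 (adjusted p = 0.0243) but not edgeR (adjusted p = 0.129). Hmmr (chromosome 11, 40701395 to 40733422, minus strand), a spindle protein and hyaluronan receptor, had 28 reads in all controls and 370 in the libraries labelled knockout. Its levels were 1.01, 0 and 0.285 CPM in the controls and 3.63, 1.20, 1.15 and 2.39 CPM in the libraries labelled knockout, with every one of these above the highest control. Its log2 fold change of 2.31 (SE 0.90) was the largest of the 41 and passed DESeq2 (adjusted p = 0.0442) but not edgeR (adjusted p = 0.227). Across alternatives the adjusted p ran from 0.0243 to 0.373 for Kif20a and from 0.0442 to 0.491 for Hmmr.

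The other spindle and kinetochore genes did not pass either. Prc1, which bundles microtubules of the central spindle, had a log2 change of 0.90 (SE 0.43), Tpx2, which activates Aurora A, 1.03 (SE 0.46), and Nusap1, a spindle-bundling protein, 0.68 (SE 0.57). Tpx2 was at 1.87, 0.704 and 0.926 CPM in the controls and 3.20, 1.597, 1.41 and 3.23 CPM in the libraries labelled knockout, so that control 1 lay above knockouts 2 and 3 while knockouts 1 and 4 stood above all controls. The kinetochore motor gene Cenpe was at 1.32, 0.0938 and 0.748 CPM and 3.68, 1.20, 1.31 and 1.32 CPM in the same order (log2 fold change 1.40, SE 0.72). Knockouts 2, 3 and 4 differed from control 1 by little, and knockout 1 was far above them. Cenpf, of the outer kinetochore, was at 1.16, 0.422 and 0.214 CPM and 3.33, 0.905, 0.687 and 1.27 CPM, again with knockout 1 highest (log2 fold change 1.41, SE 0.72). It was 0.70 without knockout 1 and 2.31 without control 1. Kif11, the kinesin that separates the spindle poles, had a log2 change of -0.11 (SE 0.35) and lay below 0 with all libraries but above it in 5 alternatives, among them that without control 1 (0.33).

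Of 2 genes widely used to count dividing cells, both overlapped between the groups. Mki67, which coats mitotic chromosomes, was at 9.11, 4.78 and 1.99 CPM in the controls and 8.73, 7.18, 5.23 and 6.61 CPM in the libraries labelled knockout, so that its highest value was in control 1. The log2 fold change was 0.40 (SE 0.44, edgeR adjusted p = 0.688), and without control 3 it was -0.0012. Top2a, the topoisomerase that untangles chromosomes, was at 7.34, 3.00 and 2.53 CPM and 7.29, 4.20, 3.11 and 4.97 CPM (log2 fold change 0.20, SE 0.41), with control 1 again the highest library and knockout 1 next to it.

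Other replication and mitotic genes, from lists that exclude these 41, leaned the same ways without edgeR calls. They were read in the same 7 libraries, and their lists were chosen with earlier results of these data known. Their lean is therefore no separate support. None of the 47 further replication genes that could be tested (of 48) passed the edgeR fit, 17 of them lay above 0, and their median log2 fold change was -0.18. At an unadjusted p under 0.05, 2 were higher and 2 lower (4.26% each, against 9.34% and 8.67% of all genes), and DESeq2 and limma-voom called 0. Those with the smallest p were Orc5, a subunit of the origin recognition complex (log2 fold change 0.48, SE 0.17, adjusted p = 0.174), and Rrm1, the large subunit of ribonucleotide reductase (-0.34, SE 0.14, adjusted p = 0.240). Of 53 further mitotic genes tested, of 60 in the table, 0 passed edgeR, 42 lay above 0 and the median was 0.42. At an unadjusted p under 0.05, 5 were higher (9.43%, near the 9.34% of all genes) and 0 lower (against 8.67%). DESeq2 called 2 higher, where it called 4.18% of all genes higher, and limma-voom called 0. Spc24, a kinetochore subunit, was at 5.27, 4.78 and 8.80 CPM in the controls and 10.8, 11.2, 15.97 and 14.8 CPM in the libraries labelled knockout, without overlap (log2 fold change 1.06, SE 0.24, edgeR adjusted p = 0.0571). Ckap2, a spindle protein, had a log2 change of 2.38 (SE 0.66, edgeR adjusted p = 0.0923). Spc24 passed without control 3 (adjusted p = 0.00393), without a low-count filter (0.0367), at equal depth (0.0472) and in DESeq2 (0.00205), and its adjusted p reached 0.492 in another alternative.

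A single regulator of the cycle rose by the edgeR test. Of 38 tested genes for CDK inhibitors, the retinoblastoma and E2F families and MuvB partners, 1 was called higher, 0 lower and 37 did not pass, with a median of 0.04. DESeq2 called 4 higher and 0 lower, against 4.18% and 3.45% of all genes, and limma-voom called 0. At an unadjusted p under 0.05 in edgeR 8 were higher (21.1%, against 9.34% of all genes) and 1 lower (2.63%, against 8.67%). The edgeR call was Mybl1, which encodes A-MYB, a relative of the MuvB partner B-MYB known best for its role in male germ cells of the mouse. It was at 1.82, 1.36 and 1.35 CPM in the controls and 12.8, 4.66, 13.3 and 16.8 CPM in the libraries labelled knockout. Knockout 2, the lowest of these, was above the highest control, and the other 3 were higher still. Its log2 fold change was 2.98 (SE 0.44) with an edgeR quasi-likelihood adjusted p of 0.0200. The call was lost without control 1 (adjusted p = 0.0918), control 2 (0.103), knockout 1 (0.0528) or knockout 3 (0.0587), while the fold change stayed between 2.77 and 3.25 in the 7 fits that each left out 1 library. It passed in 11 of 18 alternatives, with adjusted p from 9.09e-12 in DESeq2 to 0.319 against control 3 alone, and limma-voom did not call it (0.147).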

How the data were processed

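Liver RNA of 7 mice was measured, 3 controls and 4 libraries labelled knockout. Per the labels' protocols, strand-specific libraries of poly(A) RNA were sequenced from a single end over 75 nt. The authors deposited whole-number read counts by gene symbol for each library. The submitters' processing notes list STAR, DESeq2 and mm10 and give no roles. The read counter is not given in the sources used here. Entries for reads in no feature (8.62% to 16.3% of a library) and ambiguous reads (0.433% to 0.575%) were left out. Library depth, 23807580 to 49203615 reads, limits the precision for genes near 1 CPM.

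Groups came from the sample titles. Genotypes were compared in edgeR 4.0.16 under R 4.3.3, with TMM scaling, filterByExpr with a minimum count of 10, robust glmQLFit and glmQLFTest, two-sided, with Benjamini-Hochberg adjustment over 13638 genes and a threshold of 0.05. SE are those of that fit. Class levels are means of log2(CPM + 0.5). That the libraries are separate mice is taken from the labels, and p-values cover the spread between them. The 41 members and all gene lists were chosen with earlier results of these data known. All 41 members are named. From each other cell cycle list, genes past the threshold were named, up to 2 per direction, or the 2 with the smallest p where none passed, and from the marker lists those that passed. Other genes outside the 41, named as such, were chosen after their values were seen. Alternatives used DESeq2 1.42.0, limma-voom (limma 3.58.1), other scaling and filters, each library left out, a replicate block, control 3 as the lone control with its spread taken from the other libraries, an acute phase covariate and counts thinned to equal depth. The edgeR step was tested on simulated data. Coordinates and transcript lengths are those of GENCODE M21 (GRCm38, called mm10 by the authors). Between libraries of a group, chi-square divided by its degrees of freedom was at least 38.8, far above sampling noise.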

Additional observations from a re-analysis of the deposited data

Results flagged for a closer look

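In 3 of 44 measures tested in the 4 libraries labelled knockout (41 genes and 3 class levels), 1 library stood far from the other 3 by Dixon's criterion, which chance meets in about 1 of 20 groups. Bub1 was at 2.13 CPM in knockout 1 against 0.327 to 0.597 CPM in the others, and Cenpe was at 3.68 CPM in knockout 1 against 1.20 to 1.32 CPM. Mcm7 was at 6.89 CPM in knockout 4 against 9.65 to 10.1 CPM. Groups of 3 controls were not tested in this way.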

How the results depend on the processing

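None of the 41 cell cycle genes was called in any of the 18 alternative fits other than DESeq2, which called 2 higher and 1 lower. Of 722 pairs of a gene and an alternative, 21 changed sign, in 10 genes, and none of these was called. The sign of Kif11 turned in limma-voom (0.061), against control 3 alone (0.62) and when the acute phase level was a covariate (0.43), that of Cks2 in the last 2 (0.39 and 0.27) and that of Mcm5 likewise (0.14 and 0.057). Over the fits that each left out 1 library, log2 fold changes ran from -0.094 to 0.52 for Cdc6, -0.15 to 0.027 for Pcna, -0.13 to 0.30 for Rrm2, -0.33 to 0.045 for Cks2, -0.14 to 0.63 for Aurkb, -0.38 to 0.33 for Kif11, -0.075 to 0.83 for Top2a, -0.0012 to 1.05 for Mki67 and -0.15 to 1.67 for Melk. Melk was not tested without knockout 1 or knockout 4, nor Cdc6 without knockout 2 or knockout 3. Their ranges leave out those fits, and the class medians there lack them. Over all fits that left out 1 library the mitotic median ran from 0.39 to 1.17. The replication-phase median ran from -0.23 to -0.13 and their difference from 0.52 to 1.36. Against control 3 alone the mitotic median was 1.52 and the difference 1.72, and with the acute phase covariate 1.32 and 1.52. The replication-phase median was -0.32 at equal depth. Genes called among all tested numbered 302, and 1117 by DESeq2, 137 by limma-voom, 9 against control 3 alone, 101 with the covariate and 31 to 1310 when 1 library was left out. The causes of these shifts were not tested. With the replicate number as a replicate block 76 genes were called, none of them among the 41, and the mitotic and replication-phase medians were 0.83 and -0.23. Same-numbered libraries did not deviate together (correlations across genes of -0.052, 0.08 and -0.137), and of the 3 controls 1 correlated best with its own number. In promoter windows from 100 bases before the start, CHR words stood in 71.4% of the mitotic, 14.3% of the replication-phase and 8.54% of the other windows. E2F words stood there in 28.6% of the replication-phase windows, 0 mitotic ones and 1.26% of the others. Depth limits genes with few reads, of which 2 mitotic ones had 0 reads in control 2 and 1 in control 3.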

Other observations

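The genes in this part were chosen after their values were seen. Cdkn1a, which encodes the CDK inhibitor p21 and is a target of p53, was at 43.2, 19.6 and 23.2 CPM in controls 1 to 3 and 49.1, 48.9, 101 and 58.1 CPM in the libraries labelled knockout. Each of these lay above every control (log2 fold change 1.16 (SE 0.38), edgeR adjusted p = 0.183, not past the threshold, and DESeq2 adjusted p = 0.00406, past it). Knockout 3, which had the lowest mitotic level of its group, had the highest Cdkn1a. In the controls, however, control 1 had both the highest mitotic level (1.22) and the highest Cdkn1a. Knockouts 1 and 2 were about alike in Cdkn1a, at mitotic levels of 1.78 and 1.03. A relation of Cdkn1a to mitotic level was not tested. E2f7, the atypical partner of E2f8, was at 1.22, 1.13 and 0.961 CPM in the controls and 0.374, 0.851, 0.687 and 0.920 CPM in the libraries labelled knockout, again without overlap (log2 fold change -0.64 (SE 0.45), edgeR adjusted p = 0.50). Mybl2, which encodes the MuvB partner B-MYB, was at 0.506, 0.750 and 0.285 CPM in the controls and 1.10, 0.506, 0.196 and 0.199 CPM in the libraries labelled knockout, with a log2 fold change of 0.01 (SE 0.70), beside the rise of Mybl1.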
